A study of Mus musculus with 6 samples.

Results

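The 10 genes described here make, sense and pass on the cyclic GMP that holds the oocyte in meiotic arrest: Nppc, Npr1, Npr2, Npr3, Prkg1, Impdh1, Impdh2, Gja1, Gja4 and Gjc1. They were chosen by name, and all 10, each annotated as protein-coding, were found among the 54551 genes measured. RNA of granulosa cells, the somatic cells of the mouse ovarian follicle, was sequenced in 6 libraries from C57BL/6 ovaries taken at postnatal day 21. The labels give 3 libraries of Gm12840-/- mice, in which the lincRNA gene Gm12840 is targeted, and 3 libraries of wild-type (WT) mice. Both labels had the same hormones: PMSG (5 IU), which makes follicles grow, 48 h before hCG (5 IU), a substitute for luteinizing hormone (LH) that triggers ovulation, with collection 6 h after hCG. The labels give neither the deleted part of Gm12840 nor whether libraries came from separate or pooled animals, so the p-values speak only of the spread among these libraries, which may be technical.

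In the ovary, C-type natriuretic peptide, the product of Nppc, is made mainly by mural granulosa cells, and its receptor NPR2, a guanylyl cyclase, makes cGMP in granulosa and cumulus cells. The cGMP passes through gap junctions into the oocyte, where it blocks the phosphodiesterase PDE3A, keeps cAMP high and so prevents the resumption of meiosis. LH signalling is known to inactivate NPR2, to lower C-type natriuretic peptide and to close the gap junctions between follicle cells.

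Several facts of the libraries bear on every value below. Read numbers recovered from the deposited FPKM values (fragments per kilobase of gene length, scaled to library size) gave a depth of 16392098 to 19465847 reads. Gm12840 itself had 0.426, 0.611 and 1.45 FPKM in the libraries labelled Gm12840-/- 1 to 3, against 1.83, 0.566 and 0.365 FPKM in those labelled WT 1 to 3. These values rest on 5, 7 and 14 reads for Gm12840-/- 1 to 3 and on 17, 6 and 5 reads for WT 1 to 3. The groups overlapped (log2 fold change -0.03 and 95% interval -0.91 to 0.84 in the fit without a filter). Because the files do not show the targeted gene as lower, every direction below rests on the labels. The libraries did not fall apart by label: scores on the first principal component, which carried 83.3% of the variance, were 23.3, 70.8 and -55.0 in the libraries labelled Gm12840-/- 1 to 3 and -50.1, -31.1 and 42.1 in those labelled WT 1 to 3. Mitochondrially encoded features followed the same division, taking 1.52%, 4.19% and 0.146% of reads for Gm12840-/- 1 to 3 and 0.227%, 0.311% and 2.08% for WT 1 to 3. The library labelled Gm12840-/- 3 thus lay with WT 1 and WT 2, and the library labelled WT 3 with Gm12840-/- 1 and 2. Whether the labels of these 2 libraries are right cannot be told from the files, and every value given by label depends on it. All 10 granulosa cell markers passed the filter on low values, and so did 9 of 10 oocyte markers. No marker of the 10 cell type lists was at 0 in all 6 libraries.

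The start regions of the genes the results turn on are shown first. Nppc and Gja1 are shown because their levels lay on opposite sides of their means in 4 of 6 libraries, and Npr1 and Npr2 because the labels parted the levels of the first and not of the second. Each run is the 250 bases before the RefSeq start site in GRCm38.p6, read along the gene's strand. Nppc lies on the minus strand (chr1:86670574-86670823), Npr1 on the minus strand (chr3:90465867-90466116), Npr2 on the plus strand (chr4:43631685-43631934) and Gja1 on the plus strand (chr10:56377050-56377299). Capitals mark matches on either strand to the motifs searched.
Nppc: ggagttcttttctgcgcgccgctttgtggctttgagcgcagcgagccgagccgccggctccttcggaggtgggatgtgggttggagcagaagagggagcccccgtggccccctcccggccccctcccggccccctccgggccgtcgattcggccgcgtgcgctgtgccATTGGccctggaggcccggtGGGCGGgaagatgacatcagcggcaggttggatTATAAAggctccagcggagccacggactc
Npr1: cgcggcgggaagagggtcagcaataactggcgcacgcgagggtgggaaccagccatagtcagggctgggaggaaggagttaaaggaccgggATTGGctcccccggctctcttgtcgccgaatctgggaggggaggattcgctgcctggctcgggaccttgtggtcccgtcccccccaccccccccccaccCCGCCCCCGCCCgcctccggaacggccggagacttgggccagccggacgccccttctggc
Npr2: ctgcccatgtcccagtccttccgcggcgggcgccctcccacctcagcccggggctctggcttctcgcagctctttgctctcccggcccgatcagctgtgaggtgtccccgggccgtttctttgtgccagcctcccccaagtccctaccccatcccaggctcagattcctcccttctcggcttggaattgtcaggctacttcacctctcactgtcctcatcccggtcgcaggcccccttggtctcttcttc
Gja1: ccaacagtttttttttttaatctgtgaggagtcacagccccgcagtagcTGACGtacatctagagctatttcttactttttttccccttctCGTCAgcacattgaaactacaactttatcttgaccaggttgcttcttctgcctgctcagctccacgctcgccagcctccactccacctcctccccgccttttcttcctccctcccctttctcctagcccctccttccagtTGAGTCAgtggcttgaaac

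The Nppc window held a TATA box (TATAAA) 29 bases, a GC box (GGGCGG) 62 bases and a CCAAT box 82 bases before the start site. The Npr1 window held a CCAAT box and 2 GC boxes end to end, and no TATA box. The Npr2 window held none of the 7 motifs. The Gja1 window held an AP-1 site (TGANTCA) 19 bases before the start and 2 matches to the shorter core of the cAMP response element (TGACG), which the full element contains. Over 32851 windows of the same length, 12.4% held the TATA box, 32.7% the GC box, 33.8% the CCAAT box, 6.75% the AP-1 site and 17.8% the shorter core. The full cAMP response element (TGACGTCA), held by 1.55% of all windows, and the monomer site of steroidogenic factor 1 (AAGGTCA), held by 4.08%, were in none of these 4 windows. GC content was 69.2% for Nppc, 70.4% for Npr1, 64.4% for Npr2 and 50% for Gja1, against a median of 52.4% over all windows. RefSeq start windows were matched for 9 of the 10 genes. A match is a description of letters and not of binding.

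Nppc encodes the ligand of the system. It (ENSMUSG00000026241) lies on chromosome 1 in mm10, from 86666291 to 86670571 on the minus strand, and its single annotated transcript has 3 exons and 1042 bases. Its level was 12.9, 10.7 and 27.4 FPKM in the libraries labelled Gm12840-/- 1 to 3, against 28.8, 24.0 and 10.8 FPKM in those labelled WT 1 to 3. Each group thus held high and low libraries, and the groups overlapped over almost their whole range. Nppc averaged 17 ± 9.05 FPKM in the libraries labelled Gm12840-/- and 21.2 ± 9.30 FPKM in those labelled WT (SD, n = 3 each). The log2 fold change was -0.31 on the log2(FPKM + 1) scale (95% interval -1.44 to 0.82, adjusted p of 0.993 by limma). It was -0.045 without the library labelled WT 1 and -0.71 without WT 3. The 3 libraries with the most Nppc were the 3 with the lowest share of mitochondrial reads, and the part of RNA quality in this was not tested. Markers of several cell types were also higher in each of these 3 libraries than in each of the others. These were 6 of 6 erythroid, 4 of 5 mural granulosa (Nppc among them), 7 of 10 oocyte and 5 of 8 surface epithelium markers. Of the granulosa markers it was 4 of 10, of the cumulus markers 2 of 7 and of the theca markers 1 of 6. The 2 from the cumulus list were Amh and Oosp1, the gene of oocyte secreted protein 1. For stroma it was 0 of 12, for endothelium 0 of 9 and for leukocytes 0 of 8. The same 3 libraries were those with negative principal component scores. How many of all tested genes were higher in them in this way was not counted. The marker counts therefore have no background to be read against. The 6 erythroid markers summed to 756, 474 and 3512 FPKM in the libraries labelled Gm12840-/- 1 to 3 and to 4455, 2793 and 613 FPKM in those labelled WT, and the 10 oocyte markers to 276, 222 and 388 FPKM for Gm12840-/- and 441, 387 and 243 FPKM for WT. The oocyte markers did not run alike: Bmp15 had 10.7, 24.4 and 2.97 FPKM in the libraries labelled Gm12840-/- 1 to 3 and 3.81, 6.28 and 15.9 FPKM in those labelled WT. The surface epithelium markers summed to 111, 66.8 and 254 FPKM for Gm12840-/- and 271, 147 and 94.6 FPKM for WT, and the granulosa markers to 6256, 4585 and 8787 FPKM for Gm12840-/- and 11620, 11190 and 6294 FPKM for WT. Inha made up most of the granulosa sum, with 5711, 3973 and 8032 FPKM for Gm12840-/- and 10810, 10470 and 5701 FPKM for WT. Fshr stayed between 20.6 and 26.5 FPKM, and Fst was lowest in Gm12840-/- 3 and WT 1. The cumulus markers summed to 750, 550 and 984 FPKM for Gm12840-/- and 1214, 874 and 671 FPKM for WT. Amh had the highest mean of these, with 347, 181 and 779 FPKM for Gm12840-/- and 764, 494 and 250 FPKM for WT. Ptx3, Tnfaip6 and Has2 were lowest in Gm12840-/- 3. The part of these cells in the Nppc values was not tested. In bulk RNA, fewer cells of a type and less RNA per cell cannot be told apart. The related ligands Nppa and Nppb, the atrial and B-type peptides, reached at most 0.342 and 0.151 FPKM in any library. Furin, a protease that cleaves the Nppc precursor, stood at 15.8 ± 8.26 FPKM in the libraries labelled Gm12840-/- and 14.0 ± 10.2 FPKM in those labelled WT. By library it ran against Nppc: it was 16.1, 24.0 and 7.47 FPKM in the libraries labelled Gm12840-/- 1 to 3 and 6.41, 9.86 and 25.6 FPKM in those labelled WT.

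**Figure D1:**
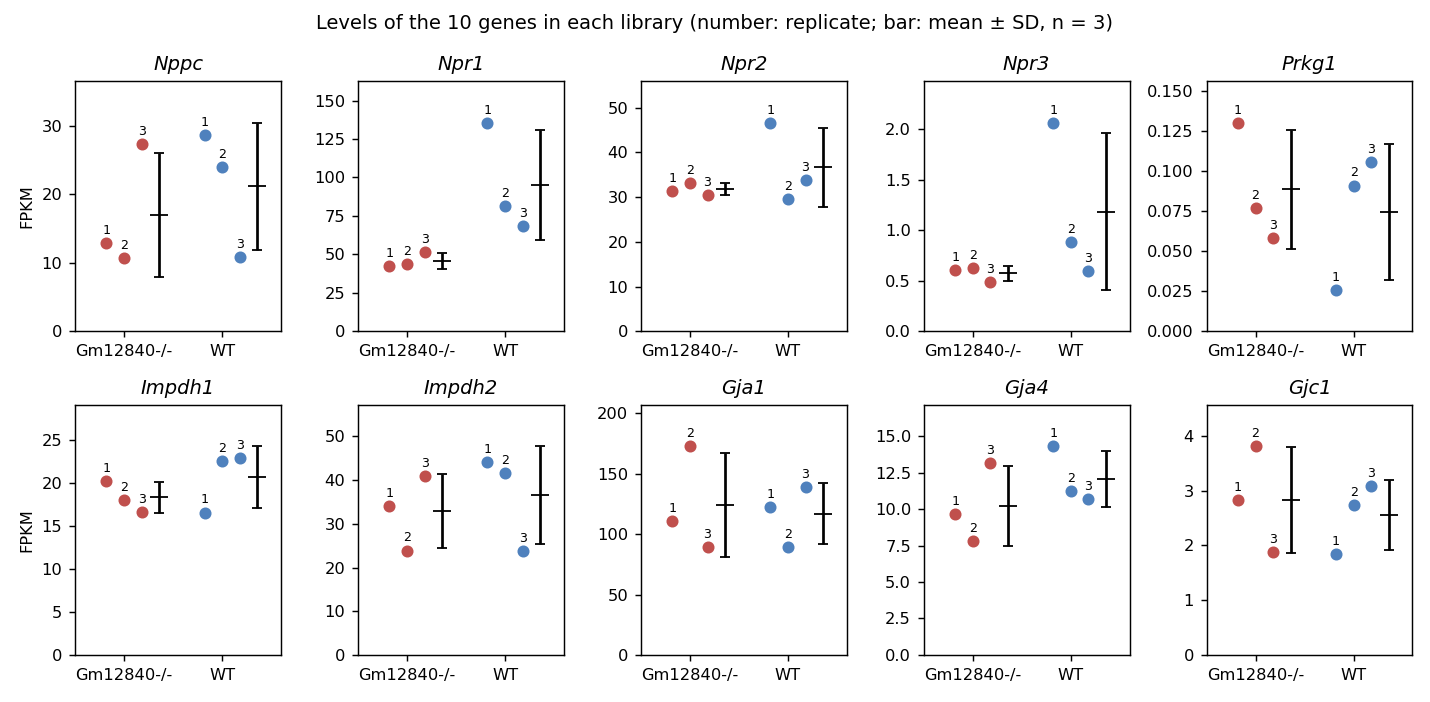
FPKM of each of the 10 genes in the 3 libraries labelled Gm12840-/- (red, left) and the 3 labelled WT (blue, right), with the replicate number beside each point and the group mean ± SD as a black bar. Npr1 is the gene whose groups do not overlap, with 42.3 to 51.7 FPKM in the libraries labelled Gm12840-/- and 68.1 to 136 FPKM in those labelled WT.

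The receptors differed among themselves. Npr2, the guanylyl cyclase that binds C-type natriuretic peptide, lies on chromosome 4 (ENSMUSG00000028469, 43631935 to 43651244, plus strand). It had 31.4, 33.3 and 30.6 FPKM in the libraries labelled Gm12840-/- 1 to 3, against 46.6, 29.6 and 33.9 FPKM in those labelled WT. All but the library labelled WT 1 lay between 29.6 and 33.9 FPKM, so Npr2 was the steadiest of the 10 genes after Impdh1, with a highest value 1.58 times the lowest. Npr2 averaged 31.7 ± 1.37 FPKM for Gm12840-/- and 36.7 ± 8.86 FPKM for WT (SD, n = 3 each). Its log2 fold change was -0.18 (95% interval -0.77 to 0.41, adjusted p of 0.993 by limma), and it was 0.0026 without the library labelled WT 1.

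Npr1, the guanylyl cyclase that binds the atrial and B-type peptides, lies on chromosome 3 (ENSMUSG00000027931, 90450591 to 90465866, minus strand). It had 42.3, 43.5 and 51.7 FPKM in the libraries labelled Gm12840-/- 1 to 3, against 136, 81.5 and 68.1 FPKM in those labelled WT. Every library labelled Gm12840-/- was below every library labelled WT. Read numbers were 3788, 3802 and 3803 in the libraries labelled Gm12840-/- and 9629, 6588 and 7112 in those labelled WT. The means were 45.8 ± 5.08 FPKM in the libraries labelled Gm12840-/- and 95.1 ± 35.7 FPKM in those labelled WT (SD, n = 3 each), a ratio of 0.482. The log2 fold change was -0.98, with a 95% interval of -1.75 to -0.21. Npr1 did not pass the test over all genes, with an adjusted p of 0.993 by limma and an unadjusted p of 0.0199. An unadjusted p under 0.05 was reached by 0.728% of the 12495 genes tested, and Npr1 had the 29th smallest. A log2 fold change at or under that of Npr1 was seen in 0.216% of them. Groups did not overlap, with Gm12840-/- lower, in 2.08% of the genes tested. The exact two-sided permutation p over libraries was 0.1, the smallest that 3 against 3 allows, and 0.778 when adjusted over the 10 genes. Without the library labelled WT 1, which had the most Npr1, the log2 fold change was -0.69.

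Values of other cell types stood beside Npr1 as follows. The 6 theca markers summed to 65.7, 61.5 and 62.8 FPKM in the libraries labelled Gm12840-/- 1 to 3 and to 84.6, 46.4 and 41.0 FPKM in those labelled WT. The 12 markers of stroma, pericytes and smooth muscle summed to 113, 89.8 and 111 FPKM for Gm12840-/- 1 to 3 and to 118, 61.4 and 63.8 FPKM for WT 1 to 3. Acta2, the smooth muscle actin, made up most of the highest sum, with 83.2 FPKM in WT 1. All 8 of these markers that were tested had a positive log2 fold change, with a median of 0.50 and 0 called. Among these 8, the groups did not overlap for Col1a2 and Pdgfrb, both higher in the libraries labelled Gm12840-/-. Of the markers under the filter, Myh11 and Cspg4 parted in the same direction, while Tagln and Rgs5 overlapped. Myh11 had 0.986 to 1.49 FPKM for Gm12840-/- and 0.554 to 0.707 FPKM for WT. Cspg4 had 0.435 to 0.708 FPKM for Gm12840-/- and 0.198 to 0.319 FPKM for WT. Over all tested genes, 3.53% did not overlap in either direction. The 9 endothelial markers summed to 15.8 to 20.5 FPKM in the libraries labelled Gm12840-/- and to 8.76 to 17.4 FPKM in those labelled WT. Of these, Eng had groups that did not overlap, with 5.916 ± 1.411 FPKM for Gm12840-/- and 3.375 ± 1.175 FPKM for WT. By limma its unadjusted p was 0.0488 and its adjusted p 0.993. The 5 mural granulosa markers, which include Nppc, summed to 860 to 1280 FPKM in the libraries labelled Gm12840-/- and 1121 to 1717 FPKM in those labelled WT. The library labelled WT 1, which had the most Npr1, had the highest mural granulosa sum. It also had the highest sum of granulosa, cumulus, theca, stroma, oocyte, erythroid and surface epithelium markers. For endothelial and leukocyte markers it did not. The part of these cells in the Npr1 values was not tested.

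Npr3, the clearance receptor that takes up natriuretic peptides and has no cyclase, lies on chromosome 15 (ENSMUSG00000022206, 11839896 to 11907287, minus strand) and was far lower than either cyclase in every library. It had 0.609, 0.623 and 0.491 FPKM in the libraries labelled Gm12840-/- 1 to 3, against 2.07, 0.888 and 0.595 FPKM in those labelled WT, from 71 to 288 reads a library. The groups overlapped, and the library labelled WT 1 stood apart. Npr3 did not pass the filter on low values. In the fit without a filter its log2 fold change was -0.42 (95% interval -1.10 to 0.27, adjusted p of 0.958 by limma), and it was -0.14 without the library labelled WT 1.

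Because the kit does not mark strand, reads from the opposite strand cannot be told apart in overlapping genes. Npr1 is overlapped by the antisense gene Gm16048, which had 0 to 5 reads a library, and Npr2 by the antisense gene Gm12473. Gm12473 had 4.16, 10.4 and 0.112 FPKM in the libraries labelled Gm12840-/- 1 to 3, against 0.582, 0.715 and 10.8 FPKM in those labelled WT, from 1 to 137 reads, while Npr2 had 2196 to 3451 reads. Npr3 is overlapped by Gm5144, and Prkg1 by Cstf2t, an RNA 3′ processing factor with 4.96 to 7.72 FPKM that lies on the other strand.

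Within each library, the balance of the cyclase receptors did not depend on how the library was scaled. The ratio of Npr2 to Npr1 was 0.742, 0.765 and 0.592 in the libraries labelled Gm12840-/- 1 to 3, against 0.344, 0.363 and 0.497 in those labelled WT. The groups did not overlap in this ratio, which was 1.75 times as high in the libraries labelled Gm12840-/- by the means of log2 ratios. The exact two-sided permutation p was 0.1, the smallest possible, and 0.6 when adjusted over the 6 ratios tested. Npr2 took 42.2%, 43.0% and 37.0% of the summed receptor FPKM in the libraries labelled Gm12840-/- 1 to 3 and 25.3%, 26.4% and 33.0% in those labelled WT. Npr1 thus exceeded Npr2 in all 6 libraries, and Npr3 took at most 1.12%. The ratio of Npr2 to Npr3 ran from 51.6 to 62.2 in the libraries labelled Gm12840-/- and from 22.6 to 56.9 in those labelled WT (exact permutation p = 0.3). The ratio of Nppc to Npr2 was 0.411, 0.322 and 0.895 in the libraries labelled Gm12840-/- 1 to 3 and 0.617, 0.811 and 0.319 in those labelled WT, with groups that overlapped (exact permutation p = 1).

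**Figure D2:**
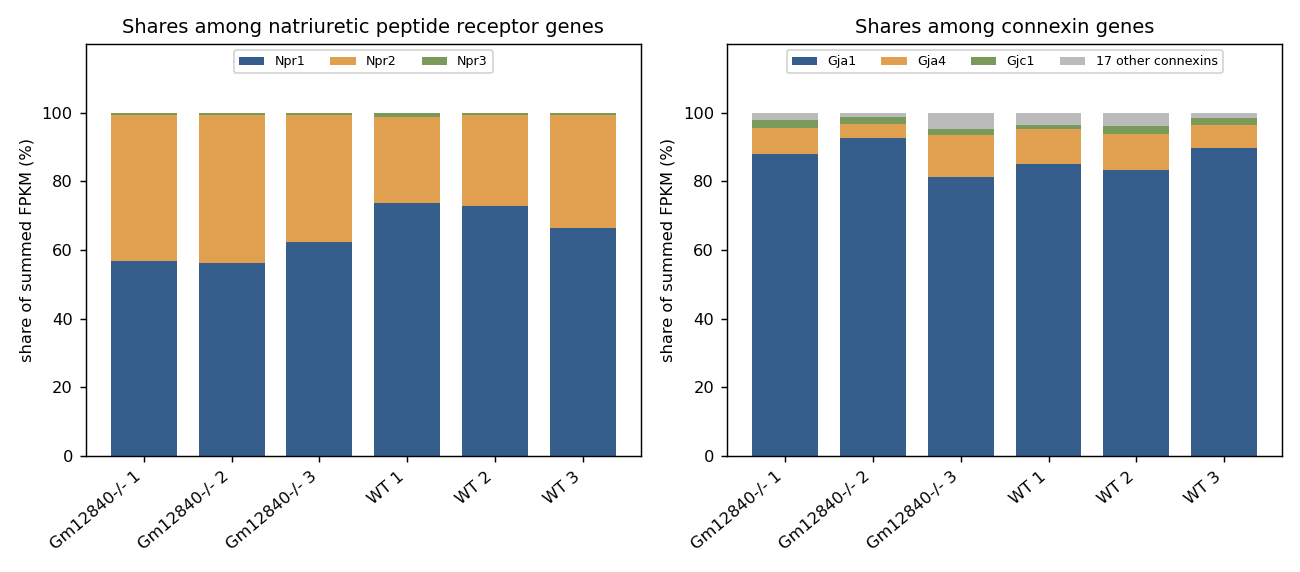
Share of summed FPKM, in percent, taken by each natriuretic peptide receptor gene (left) and each connexin gene (right), with a stacked bar for each of the 3 libraries labelled Gm12840-/- and then the 3 labelled WT. Npr2 takes 37.0% to 43.0% of receptor FPKM in the libraries labelled Gm12840-/- and 25.3% to 33.0% in those labelled WT, and Gja1 takes 81.4% to 92.6% of connexin FPKM in all 6 libraries.

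Downstream of the cyclases, the cGMP-dependent kinase genes were unequal. Prkg1, on chromosome 19 (ENSMUSG00000052920, 30567551 to 31765033, minus strand), encodes the type I kinase that relaxes smooth muscle and was close to 0, at 0.130, 0.0772 and 0.0583 FPKM in the libraries labelled Gm12840-/- 1 to 3 and 0.0259, 0.0910 and 0.106 FPKM in those labelled WT. These values rest on 3 to 19 reads a library, and the exact Poisson interval for the library labelled WT 1 ran from 0.00534 to 0.0757 FPKM. Prkg1 did not pass the filter, and its log2 fold change without one was 0.019 (95% interval -0.093 to 0.13, adjusted p of 0.958 by limma). Prkg2, the type II kinase, had 33.0, 37.8 and 38.5 FPKM in the libraries labelled Gm12840-/- 1 to 3, against 37.5, 45.2 and 37.8 FPKM in those labelled WT. Its groups overlapped (adjusted p of 0.993 by limma).

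Impdh1 and Impdh2 encode inosine monophosphate dehydrogenase, the rate-limiting enzyme of guanine nucleotide synthesis, which supplies the GTP that the cyclases use. Impdh1, on chromosome 6 (ENSMUSG00000003500, 29200434 to 29216364, minus strand), had 20.3, 18 and 16.7 FPKM in the libraries labelled Gm12840-/- 1 to 3, against 16.6, 22.5 and 23.0 FPKM in those labelled WT. Impdh2, on chromosome 9 (ENSMUSG00000062867, 108560286 to 108565584, plus strand), had 34.0, 23.9 and 40.9 FPKM in the libraries labelled Gm12840-/-, against 44.2, 41.7 and 23.8 FPKM in those labelled WT. Both genes overlapped between the labels, with log2 fold changes of -0.16 (95% interval -0.69 to 0.38) and -0.13 (-0.94 to 0.68), and neither was called (adjusted p of 0.993 by limma for both). Impdh2 exceeded Impdh1 in all 6 libraries, by 1.04 to 2.67 times. Their ratio was 1.68, 1.33 and 2.45 in the libraries labelled Gm12840-/- 1 to 3 and 2.67, 1.85 and 1.04 in those labelled WT (exact permutation p = 1). The libraries with the highest ratios were WT 1 and Gm12840-/- 3, and the lowest was WT 3.

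Impdh2 also overlaps Ndufaf3, a complex I assembly factor on the other strand, which had 7.51, 4.73 and 15.2 FPKM in the libraries labelled Gm12840-/- 1 to 3 and 14.8, 17.6 and 6.94 FPKM in those labelled WT. Reads of Impdh2 are uncertain as well, since a processed pseudogene, Impdh2-ps on chromosome 8, is nearly the same sequence. Over the 1545 bases of its transcript in GENCODE M21 it matched the 1858-base Impdh2 transcript in 1541, 99.7%, and the longest identical run was 611 bases. The differences, counted from the first base of that Impdh2 transcript and written with its base first, were C518T, T1130C, A1139G and C1383T. The stretch that holds the middle pair is shown because it is the 60 bases in which the copies differ most, with the differing bases in capitals, from position 1105 to 1164 of the Impdh2 transcript and 857 to 916 of the pseudogene.
Impdh2: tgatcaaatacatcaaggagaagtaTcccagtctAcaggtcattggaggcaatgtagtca
Impdh2-ps: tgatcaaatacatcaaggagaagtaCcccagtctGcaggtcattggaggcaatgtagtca
Within the aligned bases, a read that covers none of the 4 positions fits both copies, and how such reads were shared is not given in the sources used here. Impdh2-ps was listed at 23.4, 17.5 and 28.0 FPKM in the libraries labelled Gm12840-/- 1 to 3 and at 25.8, 25.3 and 17.4 FPKM in those labelled WT. Its reads were 0.344 to 0.368 of those of Impdh2 in the libraries labelled Gm12840-/- and 0.293 to 0.368 in those labelled WT. With the reads of both added, the log2 difference between the labels was -0.099 (exact permutation p = 0.8), a check chosen once the values had been seen. The 2600-base Impdh1 transcript was 75.7% identical to that of Impdh2 over 1561 aligned bases, with no identical run over 29 bases.

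The connexins form the channels through which cGMP reaches the oocyte. Gja1 encodes the main connexin between granulosa cells, Gja4 the one that joins the oocyte to cumulus cells, and Gjc1 one that can pair with that of Gja1. Gja1, on chromosome 10 (ENSMUSG00000050953, 56377330 to 56402513, plus strand), had 111, 173 and 89.2 FPKM in the libraries labelled Gm12840-/- 1 to 3, against 122, 89.2 and 139 FPKM in those labelled WT. The highest value was that of Gm12840-/- 2 and the lowest were those of Gm12840-/- 3 and WT 2, so the groups overlapped throughout. The means were 124 ± 43.3 FPKM for Gm12840-/- and 117 ± 25.3 FPKM for WT (SD, n = 3 each), with a log2 fold change of 0.057 (95% interval -0.79 to 0.90, adjusted p of 0.993 by limma).

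Gja4, on chromosome 4 (ENSMUSG00000050234, 127311421 to 127314039, minus strand), had 9.68, 7.82 and 13.2 FPKM in the libraries labelled Gm12840-/- 1 to 3, against 14.3, 11.2 and 10.7 FPKM in those labelled WT. It lies on the same chromosome as Gm12840, 9610498 bases beyond it. Gjc1, on chromosome 11 (ENSMUSG00000034520, 102799579 to 102819700, minus strand), had 2.83, 3.80 and 1.87 FPKM in the libraries labelled Gm12840-/-, against 1.84, 2.74 and 3.08 FPKM in those labelled WT. Both overlapped between the labels, with log2 fold changes of -0.24 (95% interval -0.84 to 0.36) for Gja4 and 0.094 (-0.54 to 0.73) for Gjc1. Neither was called (adjusted p of 0.993 by limma for both).

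Gja1 dominated the family in each library. It took 88.0%, 92.6% and 81.4% of the FPKM summed over 20 connexin genes in the libraries labelled Gm12840-/- 1 to 3, and 85.2%, 83.2% and 89.6% in those labelled WT. Gja4 took 4.20% to 12% and Gjc1 1.29% to 2.56% over the 6 libraries. Of the 17 remaining connexin genes, Gjd2, Gjd4 and Gje1 were listed at 0 in all 6 libraries, and the highest value of any was 1.93 FPKM, of Gjb5. The ratio of Gja1 to Gja4 was 11.5, 22.1 and 6.77 in the libraries labelled Gm12840-/- 1 to 3 and 8.55, 7.94 and 13.0 in those labelled WT (exact permutation p = 0.7). The ratio of Gja1 to Gjc1 was 39.2 to 47.7 in the libraries labelled Gm12840-/- and 32.5 to 66.3 in those labelled WT (exact permutation p = 1). Panx1, which encodes a hemichannel protein unrelated in sequence to connexins, stood at 8.16 ± 3.08 FPKM in the libraries labelled Gm12840-/- and 9.81 ± 2.31 FPKM in those labelled WT.

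**Figure D3:**
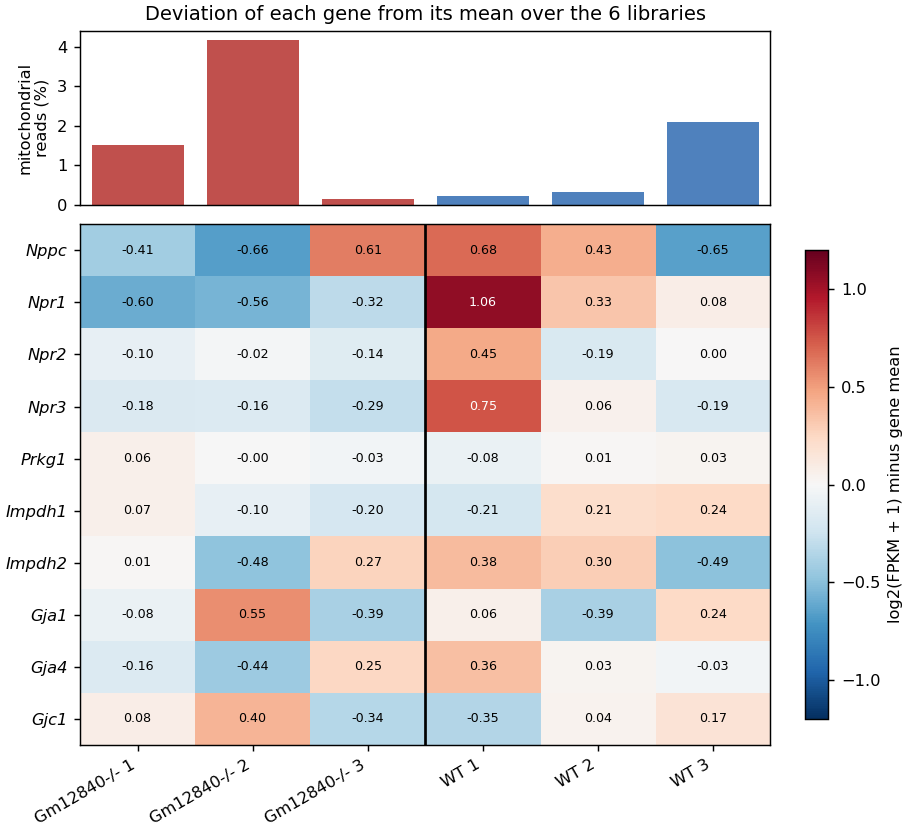
Deviation of log2(FPKM + 1) from each gene's mean over the 6 libraries (lower panel, red above and blue below the mean), with the share of mitochondrially encoded reads in percent above it, for the libraries labelled Gm12840-/- 1 to 3 and then WT 1 to 3. Nppc is at 0.61, 0.68 and 0.43 in the libraries with the lowest mitochondrial shares, Gm12840-/- 3, WT 1 and WT 2, while Gjc1 is at -0.34, -0.35 and 0.04 there.

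Some of the genes varied across libraries in ways that did not follow the labels. On the log2(FPKM + 1) scale the deviations of Nppc from its mean were -0.41, -0.66 and 0.61 in the libraries labelled Gm12840-/- 1 to 3, and 0.68, 0.43 and -0.65 in those labelled WT. Impdh2 had the same signs in 5 of the 6 libraries, with deviations of 0.01, -0.48 and 0.27 in the libraries labelled Gm12840-/- and 0.38, 0.30 and -0.49 in those labelled WT. Gja1 deviated by -0.08, 0.55 and -0.39 in the libraries labelled Gm12840-/- and by 0.06, -0.39 and 0.24 in those labelled WT. Its signs were opposite to those of Nppc in 4 of the 6 libraries, and its highest library, Gm12840-/- 2, was the lowest for Nppc. That library also had the highest mitochondrial share, and the part of RNA quality was not tested. Gene length differed as well: by deposited length Nppc is the shortest of the 10 genes (1042 bases) and Gja1 the longest (10257 bases). The length slope, that of a library's deviations on log2 gene length, was 0.039, 0.194 and -0.123 in the libraries labelled Gm12840-/- 1 to 3. It was -0.132, -0.084 and 0.105 in those labelled WT. The part of gene length was not tested. Among the 10 genes, Npr1 alone was negative in the 3 libraries labelled Gm12840-/- (-0.60, -0.56 and -0.32) and positive in the 3 labelled WT (1.06, 0.33 and 0.08). Npr3 came near it, with -0.18, -0.16 and -0.29 for Gm12840-/- and 0.75, 0.06 and -0.19 for WT. Groups parted in this direction in 2.08% of all tested genes. The library labelled WT 1 was the highest of the 6 in Nppc, Npr1, Npr2, Npr3, Impdh2 and Gja4 alike.

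The genes closest in pattern were sought among 6544 protein-coding genes of at least 5 FPKM on average, by the root mean square difference of centred log2(FPKM + 1) values over 6 libraries. The 3 closest to Nppc were Bfar, a regulator of apoptosis (0.047), Uxt (0.056) and Rrp15, a ribosome biogenesis factor (0.067), where the median over all genes compared was 0.533. The 3 closest to Npr2 were Spock2 (0.074), Fhl1 (0.090) and Htra3 (0.091), with a median of 0.417. The 3 closest to Gja1 were Hif1a, the hypoxia-inducible transcription factor (0.075), Sel1l3 (0.083) and Glce (0.086), with a median of 0.494. Hif1a stood at 47.2 ± 16.4 FPKM in the libraries labelled Gm12840-/- and 40.7 ± 7.91 FPKM in those labelled WT.

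As a list, 8 of the 10 genes passed the filter, and limma called 0 of the 8 at an adjusted p under 0.05, as it called 0 of 12495 genes tested (0%). By sign, 2 of the 8 were positive and 6 negative. Their median was -0.17, and that of all tested genes was -0.035. The median of the 8 depended on single libraries and on scaling: it was -0.052 without the library labelled WT 1, -0.27 without WT 3, -0.084 with library totals and -0.077 with upper quartile scaling. An unadjusted p under 0.05 was reached by Npr1 alone among the 8. The 95% interval reached a median of 0.701 to either side of the estimate for the 8 genes and 0.734 for all tested genes.

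**Figure D4:**
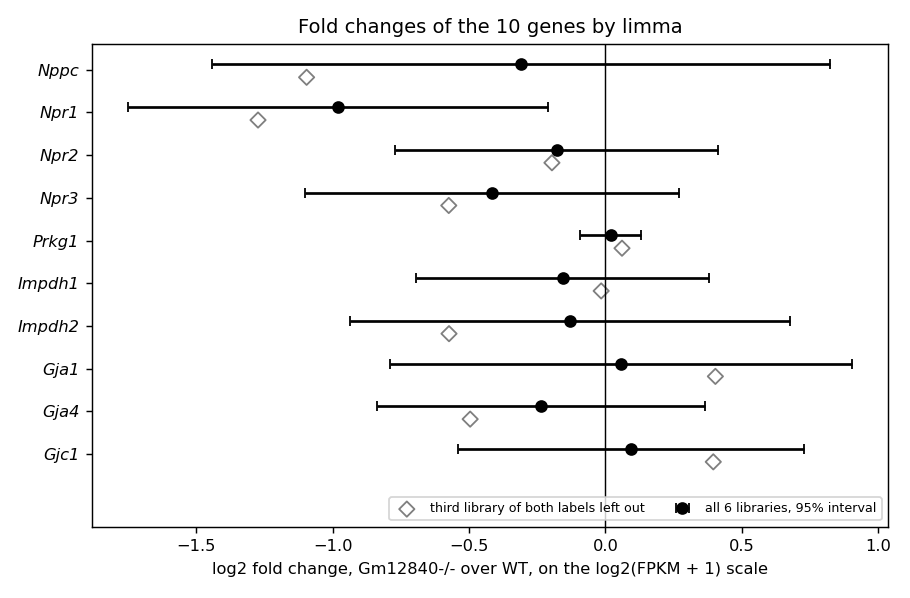
Log2 fold change of each gene, Gm12840-/- over WT, on the log2(FPKM + 1) scale by limma. Filled points with 95% intervals use all 6 libraries, and open diamonds leave out the third library of both labels. The interval of Npr1 (-1.75 to -0.21) is the one that does not include 0.

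With the third library of both labels left out, Nppc (log2 fold change -1.10, adjusted p of 0.0228 by limma) and Npr1 (-1.27, adjusted p of 0.0274) were called lower. That fit called 27.6% of all tested genes, and 16.3% of all tested genes were called lower. It sets the libraries labelled Gm12840-/- 1 and 2 against WT 1 and 2, which lie on opposite sides of 0 on that principal component, so label and library quality cannot be told apart in it. With the mitochondrial share as a covariate over all 6 libraries the log2 fold change was -0.03 for Nppc and -0.88 for Npr1, neither called (adjusted p of 0.987 and 0.595 by limma).

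The order of levels, compared per length over the 6 libraries, ran from Gja1 (121 ± 32 FPKM, SD, n = 6) through Npr1 (70.4 ± 35.3), Impdh2 (34.8 ± 9.11), Npr2 (34.2 ± 6.29), Impdh1 (19.5 ± 2.85), Nppc (19.1 ± 8.52), Gja4 (11.2 ± 2.35), Gjc1 (2.70 ± 0.749) and Npr3 (0.879 ± 0.596) to Prkg1 (0.0814 ± 0.0366). Some neighbours in this order did not differ beyond their spread: Impdh2 exceeded Npr2 in 3 of 6 libraries, and Impdh1 exceeded Nppc in 3 of 6. Gja1 exceeded Npr1 in 5 of 6 and Gjc1 exceeded Npr3 in 5 of 6. The deposited length, which covers all exons of all transcripts (retained introns included) for 9 of the 10 genes, bears on the order. It is 10257 bases for Gja1, whose longest coding transcript has 3182 bases, and 5003 bases for Gjc1, whose longest has 2314. Per kilobase of the longest coding transcript, also chosen once the values had been seen, Gja1 stood at 389 ± 103 and Gjc1 at 5.83 ± 1.62, and the order of the means was unchanged. Gja1 then exceeded Npr1 in 6 of 6 libraries, while Npr1 exceeded Impdh2 in 4 and Gja4 exceeded Gjc1 in 5, where both did so in 6 with the deposited length. That reading assumes that all reads came from the coding transcript.

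**Figure D5:**
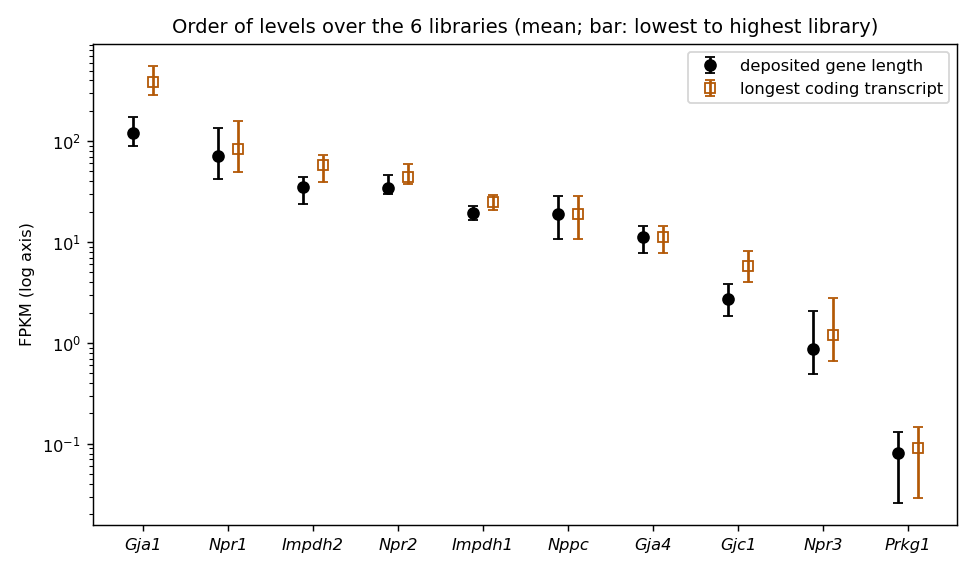
Mean FPKM of each gene over the 6 libraries on a log axis, with bars from the lowest to the highest library. Black circles use the deposited gene length and open squares the longest coding transcript, with which Gja1 stands at 389 in place of 121 FPKM.

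Other genes of the pathway were measured in 9 lists. Of 110 list features in the tables, 58 passed the filter, and limma called 0 of them over all genes, with 0 at an unadjusted p under 0.05. The list medians below depended on the processing, since 8 of the 9 had another sign under at least 1 alternative. Among the 58, groups did not overlap for Cdk1, lower in the libraries labelled Gm12840-/-, and Prps2, higher in them. Of all tested genes, 3.53% did not overlap in either direction. Prps2, a phosphoribosyl pyrophosphate synthetase, stood at 10.1 ± 1.32 FPKM in the libraries labelled Gm12840-/- and 7.26 ± 0.480 FPKM in those labelled WT. Cdk1, the kinase that drives entry into meiosis and mitosis, stood at 17 ± 1.84 FPKM in the libraries labelled Gm12840-/- and 21.4 ± 3.04 FPKM in those labelled WT. Its groups all but touched, at 18.46 FPKM in Gm12840-/- 2 and 18.47 FPKM in WT 3.

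Among natriuretic peptide ligands and processing genes, 2 of 7 were tested, Furin and Corin, with 1 positive and 1 negative and a median log2 fold change of 0.12. Ostn, which encodes a ligand of the clearance receptor, was listed at 0 in all 6 libraries, and so was Ide, a protease gene that most cells use. Of 11 genes of other guanylate cyclases and nitric oxide synthases 3 were tested, all positive, with a median of 0.11. They included Nos2, the inducible nitric oxide synthase, at 7.16 ± 3.88 FPKM in the libraries labelled Gm12840-/- and 4.50 ± 3.00 FPKM in those labelled WT, and Gucy1b1, a subunit of soluble guanylate cyclase, at 1.75 ± 1.18 FPKM for Gm12840-/- and 1.54 ± 0.842 FPKM for WT. Of 14 genes of phosphodiesterases that hydrolyse cGMP or belong to that family 3 were tested, with 1 positive, 2 negative and a median of -0.044. Pde6d, a delta subunit, stood at 12.4 ± 1.98 FPKM in the libraries labelled Gm12840-/- and 13.1 ± 3.83 FPKM in those labelled WT, and Pde1a, a calcium-dependent enzyme, at 4.78 ± 0.894 FPKM for Gm12840-/- and 4.67 ± 1.00 FPKM for WT. Pde5a, which is specific for cGMP, stayed under the filter at 0.415 to 1.26 FPKM.

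Of 9 other cGMP effectors 3 were tested, all negative, with a median of -0.14. Prkg2 and Vasp, an actin regulator that cGMP-dependent kinases phosphorylate, were the most abundant, Vasp at 22.4 ± 5.93 FPKM in the libraries labelled Gm12840-/- and 24.9 ± 5.07 FPKM in those labelled WT. All 16 features of guanine nucleotide synthesis were tested, 9 positive and 7 negative, with a median of 0.024. They stand for 15 gene names, since Ppat was listed both on chromosome 5 (log2 fold change 0.054) and on chromosome 11 (-0.21). A shared name does not show that both features encode the purine enzyme, and both enter the signs and the median. Hprt, which salvages guanine, stood at 87.2 ± 8.38 FPKM in the libraries labelled Gm12840-/- and 84.2 ± 8.39 FPKM in those labelled WT, and Paics, of purine synthesis, at 35.3 ± 5.59 FPKM for Gm12840-/- and 31.7 ± 1.56 FPKM for WT. Of 20 other connexins and pannexins 2 were tested, Panx1 and Gjb5, both negative, with a median of -0.19. Of 12 genes that bind or phosphorylate connexins 12 were tested, 8 positive and 4 negative, with a median of 0.066. Ctnnb1, the beta-catenin of adherens junctions, stood at 66.7 ± 38.2 FPKM in the libraries labelled Gm12840-/- and 54.8 ± 33.1 FPKM in those labelled WT, and Mapk3, an LH-responsive kinase that phosphorylates connexins, at 50.2 ± 13.9 FPKM for Gm12840-/- and 53.3 ± 8.35 FPKM for WT.

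Of 11 genes of the oocyte arrest machinery 8 were tested, 5 positive and 3 negative, with a median of 0.073 that ran from -0.20 to 0.38 over the alternatives. Gdf9, an oocyte growth factor, stood at 91.6 ± 44.1 FPKM in the libraries labelled Gm12840-/- and 109 ± 36.8 FPKM in those labelled WT. Of 11 receptors and kinase steps upstream of NPR2 inactivation 9 were tested, 4 positive and 5 negative, with a median of -0.017. Lhcgr, the LH receptor, stood at 51.9 ± 14.7 FPKM in the libraries labelled Gm12840-/- and 60.1 ± 23.8 FPKM in those labelled WT, and Ppp2ca, a catalytic subunit of a phosphatase, at 46.4 ± 6.89 FPKM for Gm12840-/- and 49.0 ± 4.85 FPKM for WT. With the third library of both labels left out, 12 of the 58 were called, 9 higher and 3 lower. Of all tested genes, 27.6% were called in either direction and 16.3% were called lower. The 9 were Furin, Nos2, Tjp1, Ctnnb1, Nedd4, Adcy3, Bmp15, Egfr and Ereg, and the 3 were Adsl, Guk1 and Nme1.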

How the data were processed

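RNA of granulosa cells was sequenced with the TruSeq RNA kit, which does not mark strand, per the labels' protocols. For each library the authors deposited FPKM values per gene, per the file headers. The submitters' processing notes name HISAT2 2.0.5 and mm10. How reads were counted, with which annotation release, and how they were scaled is not given in the sources used here. FPKM times gene length, divided by 1 step per library, gave whole reads in 100% of values, within 0.01 reads. The library totals behind the FPKM values were 0.894 to 1.12 times the recovered reads, and intervals on reads (exact Poisson, 95%) cover counting error only. Groups came from the titles. limma 3.58.1 in R 4.3.3, with a trend, compared log2(FPKM + 1), which understates changes of low genes, in genes over 1 FPKM in at least 3 libraries. Two-sided p-values were adjusted over all tested genes (Benjamini-Hochberg) and called under 0.05. Ratios and single genes were compared by exact permutation over libraries. Libraries of one label differed by more than sampling noise. The 10 genes and the lists were chosen with earlier results of these data known. The rule for named genes took the 10 genes, the 2 most abundant members of each list, called members, and the 3 genes closest in pattern to Nppc, Npr2 and Gja1. Other named genes were chosen after their values were seen. Sequences came from RefSeq (GRCm38.p6) and GENCODE M21, whose exons gave the deposited length of 9 of the 10 genes. Figures were drawn with matplotlib 3.10.9.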

Additional observations from a re-analysis of the deposited data

How the results depend on the processing

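Alternatives were the pseudocount, the filter, library totals, upper quartile scaling, limma-voom, the replicate block, covariates, protein-coding genes and leaving out libraries. limma called 0 genes in the main comparison, and 1, higher (Mir1291, named after its value was seen), with the length slope or with the mitochondrial share as a covariate. With the third library of both labels left out it called 3451, including 2 of the 10 genes and 12 list genes, and the median of the tested members was -0.346. In that alternative the libraries labelled Gm12840-/- and those labelled WT lie on different sides of the first principal component. No member was called under any other alternative run. With the replicate block 0 genes and 0 members were called. The deviations of libraries that share a number correlated at -0.422, -0.672 and -0.894, so the number gave no sign of pairing.

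The log2 fold change of Npr1 ran from -1.27 to -0.69 over the alternatives run. With the length slope, log2 fold changes turned to 0.034 for Nppc, 0.086 for Impdh2, -0.12 for Gja1 and -0.061 for Gjc1, and with the mitochondrial share to 0.036 for Impdh2, -0.083 for Gja1 and -0.029 for Gjc1. For Gm12840 the value became 0.0047 (library totals), 0.0029 (upper quartile), 0.035 (limma-voom), 0.15 (length slope) and 0.12 (mitochondrial share). None of these was called, and the cause was not tested. Leaving out 1 library gave ranges of -0.71 to -0.045 for Nppc, -0.61 to -0.14 for Npr3, -0.30 to -0.078 for Impdh1, -0.42 to -0.077 for Gja4, -0.27 to -0.052 for the median of the tested members, -0.32 to 0.0026 for Npr2, -0.013 to 0.041 for Prkg1, -0.41 to 0.078 for Impdh2, -0.21 to 0.27 for Gja1, -0.084 to 0.29 for Gjc1 and -0.27 to 0.28 for Gm12840. For log2 ratios the ranges were -0.34 to 0.35 for Impdh2 to Impdh1, -0.12 to 0.73 for Gja1 to Gja4, -0.32 to 0.20 for Gja1 to Gjc1, -0.58 to 0.16 for Nppc to Npr2, 0.71 to 0.98 for Npr2 to Npr1 and 0.35 to 1.02 for Npr2 to Npr3. With the third library of both labels left out, the ratio of Impdh2 to Impdh1 turned to -0.575. Over all alternatives the list medians ran from -0.214 to 0.817 for ligands and processing, -0.0624 to 0.672 for cyclases and synthases, -0.122 to 0.139 for phosphodiesterases, -0.191 to -0.0439 for effectors, -0.0368 to 0.152 for guanine nucleotides, -0.694 to 0.0252 for connexins and pannexins, -0.102 to 0.461 for connexin binding and -0.0373 to 0.0738 for upstream receptors. Of the alternative values for the overall counts, the members' median and the ratios, 109 kept their direction or moved little, 6 moved and 8 changed sign. Of those for single genes, list medians and levels, 296 kept theirs or moved little, 19 moved, 24 changed sign and 2 came to pass the threshold. The 24 are all of single genes. Changes of sign in list medians, seen in 8 of the 9 lists, are counted here as moved or as moved little. Depth limits Prkg1 (3 to 19 reads a library) and Gm12840 most.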
